A study of Mus musculus with 2 samples.

Results

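The genes described here are the nuclear receptor gene *Pparg* and 9 genes that take up, carry, store, break down or export lipid: *Cd36*, *Fabp4*, *Fabp5*, *Plin2*, *Lpl*, *Lipa*, *Abca1*, *Abcg1* and *Apoe*. They were chosen by name as columns of the table of molecule counts and make up 10 of its 27031 genes. Their levels were compared across macrophage states, dendritic cells and the control and telmisartan groups.

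MC38 colorectal tumors had been grown in female C57BL/6 mice that were 6 to 8 weeks old at the start. From implantation, the control group received vehicle and the telmisartan group 5 mg/kg telmisartan, each by daily intragastric dosing, and tumors were taken on day 13. Live CD45-positive cells of 5 mice were pooled in each group, marked with a Sample Tag (tag 1 for control, tag 2 for telmisartan) and run together in 1 BD Rhapsody capture, so each group is 1 pool without replicates. Differences between mice, or between the handling of the pools, cannot be told apart from an effect of treatment.

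PPARG is a nuclear receptor that pairs with RXR and, when it binds fatty acids or their derivatives, turns on genes for lipid uptake, transport and storage. In macrophages, surplus cholesterol instead yields oxysterols that activate the LXR receptors, which raise the cholesterol exporters ABCA1 and ABCG1 and the carrier protein APOE. Telmisartan blocks the angiotensin II type 1 receptor and is also known as a partial activator of PPARG.

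The gene expression and Sample Tag libraries shared all of the 20726 cell barcodes. By tag, 54619115 UMIs (unique molecules) belonged to 8738 control cells and 42401764 to 10222 telmisartan cells. After limits on genes and mitochondrial UMIs and the removal of likely doublets, 4542 control cells held 41768680 UMIs (median 8720.5 in a cell). The 4427 telmisartan cells kept held 30939085, with a lower median of 6365. Levels are given for that reason as CPM, the UMIs of a gene per 1000000 UMIs of the same cells, and ratios as log2 of telmisartan over control. The 95% intervals (exact Poisson for a level, exact Clopper-Pearson for a share of cells, exact conditional binomial for a ratio) cover counting error only.

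Macrophage-like cells made up most of the data, with 4060 control and 3996 telmisartan cells. They are the clusters that the marker lists of other cell types did not name. Of the macrophage markers, *Lyz2* and *Cd68* had 10517 and 956 CPM in them, against 1484 and 384 in dendritic-like and 2401 and 297 in T-like cells. *Cd86* went the other way, with 361 CPM against 488 in dendritic-like cells, and *Cd68* reached 679 in neutrophil-like cells. All 11 macrophage markers were also detected in dendritic-like and T-like cells, and none was among the 10 leading genes of macrophage-like cells. Dendritic-like cells numbered 361 and 292, T-like cells 74 and 115, and neutrophil-like cells 47 and 24. The macrophage-like cells fell into 8 states by a clustering that left out the 10 genes and the other lipid genes listed here. State 1 (718 control and 1174 telmisartan cells) was led by *Il1r2*, *Areg* and *Il1a*, and state 2 (1323 and 346) by *Cxcl9* and *Serpina3g*. State 3 (654 and 684) was led by *Folr2*, *Cbr2*, *Ccl8* and *Apoe* itself, state 4 (357 and 742) by interferon-induced genes such as *Ifit3* and *Rsad2*, and state 5 (403 and 540) by *Hmox1*, *Serpinb2*, *Il6* and *Nos2*. States 6 (367 and 333) and 7 (229 and 105) carried the cell cycle genes *Top2a* and *Mki67* or the replication genes *Mcm2* to *Mcm7*. State 8 had 9 control and 72 telmisartan cells and, with fewer than 20 in control, was not compared.

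State 4 was shallow: its median cell had 2318 UMIs in control and 2428.5 with telmisartan, and that of state 5 had 4048 and 3677.5. The neutrophil marker *Mmp8* was among the 10 leading genes of state 5, but the summed level of the neutrophil list there was 377 CPM in control and 404 in telmisartan, against 17291 and 11551 in neutrophil-like cells.

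Dendritic-like cells formed 4 states. State 1 (174 and 154 cells) was led by *Rsad2*, *Ffar2*, *Cd209a*, *Ms4a4c* and *Klrd1*, with *Ifit2* also among its leading genes. State 3 (60 and 47) was led by *Fscn1* and *Il12b*, and state 4 (53 and 35) by *Xcr1* and cell cycle genes. State 2 (74 and 56 cells) was led, against the other dendritic-like cells, by *Lpl*, *Lyz1*, *Ear2*, *Fn1*, *C1qa*, *Trem2* and *Lyz2*, of which 2 are macrophage markers and none dendritic. Its summed dendritic markers were 1048 CPM in control and 400 with telmisartan, and its macrophage markers 8057 and 7316. In the other dendritic states these sums were 1510 to 16290 CPM for dendritic and 1236 to 2060 for macrophage markers. In macrophage states 1 to 7 they were 22.8 to 69.2 and 8423 to 23642. Against cells of other classes, the 10 leading genes of state 2 held 1 dendritic marker, *Ccl22*, and no macrophage marker. A difference between groups within this state cannot be told apart from one in its make-up. It is called dendritic state 2 only by its number, and the log2 ratios of the dendritic-like class that it moved past or under 1.5-fold are also given without it.

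In macrophage-like cells, 3 of the 10 genes were at least 1.5-fold higher with telmisartan, namely *Apoe*, *Cd36* and *Fabp4*, whereas *Lpl* was at least 1.5-fold lower. Of the 11073 genes that reached 100 UMIs when the groups were summed, 4.71% were at least 1.5-fold higher and 2.25% at least 1.5-fold lower. The median log2 ratio was 0.22 for the 10 genes and -0.04 for those 11073. *Apoe* had a larger ratio than 99.2% of the genes and *Cd36* than 96.9%, while only 1.08% had a smaller ratio than *Lpl*. With every state weighted by its share of control cells, *Apoe* alone stayed past 1.5-fold (0.96), beside 0.45 for *Cd36*, 0.34 for *Fabp4* and -0.46 for *Lpl*. Without scaling for depth, where the median of the 11073 genes was -0.45, the ratios of *Pparg* (-0.23), *Plin2* (-0.21), *Abca1* (-0.02) and *Abcg1* (-0.17) turned below 0.

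In dendritic-like cells, 8 of the 10 genes reached 100 UMIs. Of these, *Cd36* and *Lpl* were at least 1.5-fold higher with telmisartan and none was at least 1.5-fold lower. Of 5812 genes at that depth, 3.60% were past 1.5-fold upward and 3.18% downward. The median log2 ratio was 0.14 for the 8 genes and -0.02 for the 5812. Without dendritic state 2, *Cd36* stood at -0.09. It was also at -0.18 where a cell needed 90% of its tag reads from 1 tag, a setting that also raised the cells removed as doublets from 942 to 3168, so that the effects of the 2 cannot be told apart. It was at 0.17 in cells thinned to 1000 UMIs. *Fabp5* passed 1.5-fold downward with the 90% tag share and more doublets removed (-1.64) and without an upper limit on genes (-0.60). It also did so without scaling for depth (-0.76) and without dendritic state 2 (-0.62), and *Abca1* did without that state (-1.03). *Apoe* was at 1.14 under the same setting of tag share and doublets, and thinned cells gave 1.03 for *Plin2* and 1.06 for *Abca1*.

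**Figure D1:**
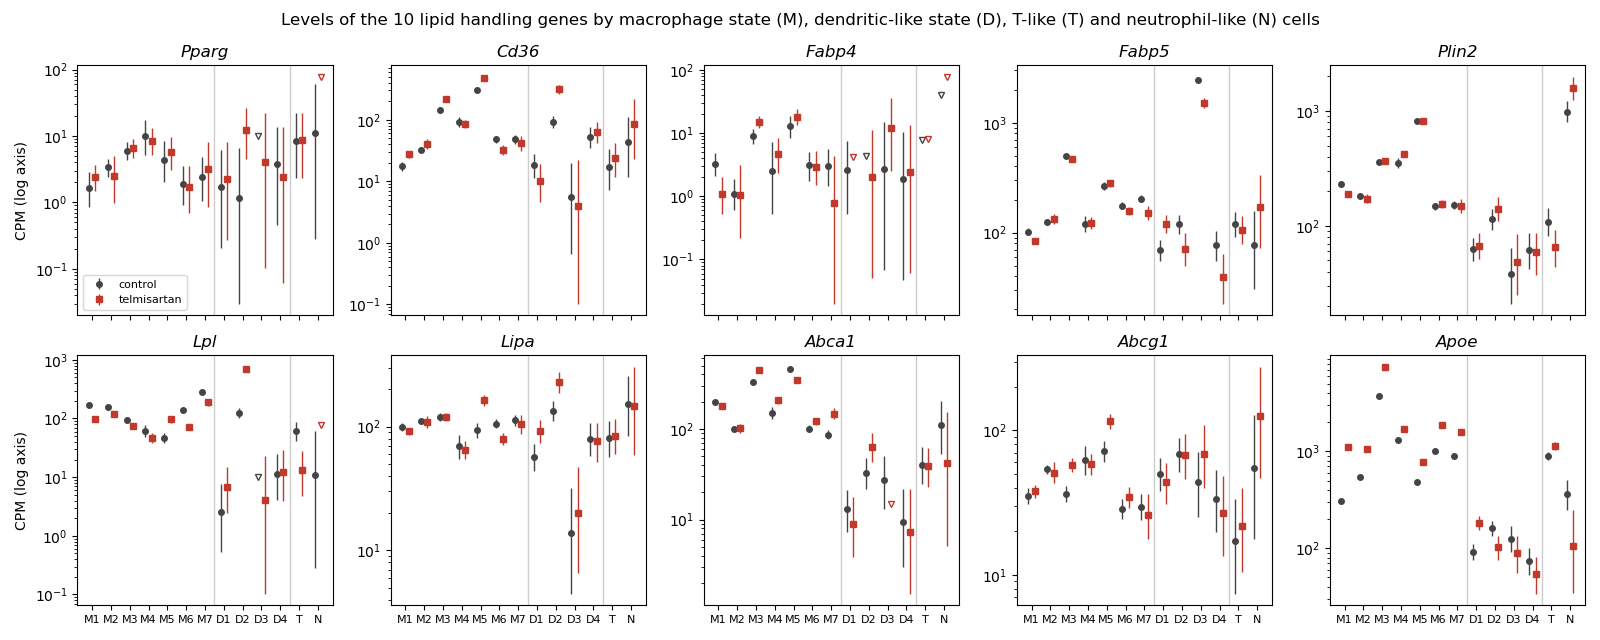
Levels of the 10 genes in CPM (log axis) by macrophage state (M1 to M7), dendritic-like state (D1 to D4), T-like (T) and neutrophil-like (N) cells, for control (circles) and telmisartan (squares). Bars are exact Poisson 95% intervals, open triangles give the upper bound where no UMI was found, and *Apoe* is highest in M3, *Cd36* and *Plin2* in M5 among macrophage states.

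Across macrophage states, 9 of the 10 genes had a highest state at least 3-fold above the lowest, and *Lipa* was the exception. The same held for 28.7% of 11062 genes. *Cd36* had the widest range at 17.3-fold, more than 96.6% of genes, followed by *Fabp4* at 14.4-fold and *Apoe* at 8.55-fold. *Plin2*, *Fabp5*, *Lpl* and *Pparg* varied between 5.42- and 4.94-fold, *Abca1* 3.94-fold, *Abcg1* 3.35-fold and *Lipa* 1.99-fold. State 5 held the highest level of 6 genes (*Cd36*, *Fabp4*, *Plin2*, *Lipa*, *Abca1* and *Abcg1*), state 3 that of *Apoe* and *Fabp5*, state 4 that of *Pparg* and state 7 that of *Lpl*. In control alone *Lipa* was highest in state 3, and with telmisartan alone *Abca1* was.

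Between the classes, *Plin2*, *Abca1* and *Apoe* were at least 3-fold higher in macrophage-like than in dendritic-like cells in both groups, beside 3.52% of 11268 genes. None of the 10 was at least 3-fold higher in dendritic-like cells, beside 2.88% of genes. *Lpl* changed sides, at 3.82-fold higher in macrophage-like cells in control and 1.87-fold higher in dendritic-like cells with telmisartan. Dendritic state 2 held 335 of those 347 telmisartan UMIs, and in the other dendritic states *Lpl* was below its level in macrophage-like cells in both groups.

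*Pparg*, the receptor itself (chromosome 6 of GRCm38, 115360951 to 115490399), was sparsely detected. In macrophage-like cells it had 133 UMIs in control (3.47 CPM, 2.91 to 4.12) and 112 in telmisartan (3.94 CPM, 3.25 to 4.75), a log2 ratio of 0.18 (-0.19 to 0.56). No difference between the groups was detectable at this depth. UMIs were found in 108 of 4060 control macrophage-like cells (2.66%, 2.19 to 3.20%) and 88 of 3996 telmisartan cells (2.20%, 1.77 to 2.71%). T-like cells had them in 3 of 74 (4.05%) and 4 of 115 (3.48%), at median depths of 3982.5 and 3001 UMIs against 8986 and 6473.5 in macrophage-like cells. The T-like intervals, 0.844 to 11.4% and 0.956 to 8.67%, include the macrophage-like shares, so these shares do not tell expression in macrophage-like cells from background.

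By state, *Pparg* had 9.03 CPM in state 4, 6.30 in state 3, 5.10 in state 5, 3.21 in state 2, 2.64 in state 7, 2.06 in state 1 and 1.83 in state 6, both groups together. Intervals of every pair of neighbours in this order overlapped, whereas that of state 3 lay above those of states 2, 7, 1 and 6. States 3 and 4 led in both groups, with 39 and 12 UMIs in control and 38 and 20 with telmisartan. The interval of the log2 ratio included 0 in each of the 7 states. In dendritic-like cells *Pparg* had 5 UMIs in control and 10 with telmisartan (1.52, -0.17 to 3.41), 6 of the latter in dendritic state 2 against 1 in control.

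Among the other receptors, *Ppard*, a relative of *Pparg* that also binds fatty acids, had 33.6 CPM in control and 50.3 in telmisartan macrophage-like cells (0.58, 0.47 to 0.69), just under 1.5-fold. *Ppara* had 10 and 6 UMIs. The partner *Rxra* had 611 and 461 UMIs (0.03), and *Rxrb* had 651 and 514 (0.09). Of the LXR genes, *Nr1h2* had 49.0 and 54.6 CPM and *Nr1h3* 4.44 and 3.91. *Ppargc1b*, a coactivator, was lower with 7.34 and 4.90 CPM (-0.58, -0.89 to -0.29). None of the 17 receptor and coregulator genes at 100 UMIs passed 1.5-fold, and their median was 0.03 (-0.05 with the control shares of the states).

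*Cd36* encodes a scavenger receptor that brings in long-chain fatty acids and oxidized lipoproteins (chromosome 5, 17781690 to 17888801). It rose in macrophage-like cells from 68.6 CPM in control (2629 UMIs) to 113 with telmisartan (3209 UMIs), a log2 ratio of 0.72 (0.64 to 0.79). The share of cells with a UMI hardly moved, from 790 cells (19.5%, 18.3 to 20.7%) to 837 (20.9%, 19.7 to 22.2%), in cells that were shallower with telmisartan. In cells thinned to 1000 UMIs each it was 5.53% (4.84 to 6.28%) and 8.51% (7.66 to 9.43%). At 500 UMIs each it was 3.67% (3.11 to 4.29%) and 4.06% (3.46 to 4.71%), with overlapping intervals. In T-like cells 4 of 74 (5.41%) and 7 of 115 (6.09%) had a UMI before thinning. Macrophage-like cells were thus higher in both groups, although they are also deeper.

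State 5 had the highest *Cd36* level at 399 CPM, followed by 180 in state 3, 87.8 in state 4, 46.4 in state 7, 41.3 in state 6, 34.0 in state 2 and 23.1 in state 1. Only the neighbours 7 and 6 overlapped. State 5 rose from 309 to 473 CPM (0.61, 0.47 to 0.76), state 3 from 144 to 221 (0.62, 0.50 to 0.75) and state 1 from 17.5 to 27.5 (0.65, 0.34 to 0.97). States 2, 4 and 7 gave 0.30, -0.12 and -0.22 with intervals that include 0, and state 6 went the other way, from 48.2 to 32.5 CPM (-0.57, -0.88 to -0.26), just under 1.5-fold. In thinned cells of state 6 *Cd36* was found in 11 of 367 and 13 of 332 cells, which is not lower with telmisartan. States 3 and 5 together held the larger part of the *Cd36* UMIs, with 35.4% and 24.0% of those in control macrophage-like cells and 39.6% and 36.4% with telmisartan. State 5 was 9.93% of control and 13.5% of telmisartan macrophage-like cells. Without state 5 the log2 ratio of the class was 0.51, under 1.5-fold.

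In dendritic-like cells *Cd36* went from 44.7 to 92.3 CPM (1.05, 0.72 to 1.38). Dendritic state 2 was highest with 173 CPM, then state 4 with 57.2, state 1 with 14.6 and state 3 with 4.90, and only states 1 and 3 overlapped. State 2 rose from 93.0 CPM (21 of 74 cells) to 311 (22 of 56 cells), a log2 ratio of 1.74 (1.34 to 2.15) that carries the limit on its make-up given above, while states 1 and 4 gave -0.84 and 0.29 with intervals that include 0. Neutrophil-like cells had 4 UMIs in each group.

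*Fabp4* and *Fabp5* encode fatty acid binding proteins that carry fatty acids in the cytosol, and *Fabp4* is a classical PPARG target in adipocytes and macrophages. *Fabp4* (chromosome 3, 10204088 to 10208576) had 151 UMIs in control macrophage-like cells (3.94 CPM) and 168 with telmisartan (5.92 CPM), a log2 ratio of 0.59 (0.26 to 0.91), at the very edge of 1.5-fold. It reached 15.8 CPM in state 5 and 11.7 in state 3. The levels in the other states were 3.95 in state 4, 3.01 in state 6, 2.42 in state 7, 2.06 in state 1 and 1.09 in state 2. States 5 and 3 overlapped, and so did each pair of neighbours from state 4 down, which leaves states 5 and 3 above the rest. State 3 rose from 8.95 to 14.8 CPM (0.73, 0.23 to 1.23), state 5 had 12.8 and 18.2 (0.52, -0.21 to 1.27), and state 1 fell from 24 to 10 UMIs (-1.60, -2.83 to -0.48). In cells thinned to 1000 UMIs the log2 ratio of the class was 0.03, with 23 and 20 cells carrying a UMI. T-like cells had no *Fabp4* UMI in 74 control and 115 telmisartan cells (upper bounds of 4.86% and 3.16% on cells with a UMI, not on cells expressing the gene), and dendritic-like cells had 5 in each group.

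*Fabp5* (chromosome 3, 10012548 to 10016607) had 205 CPM in control and 202 in telmisartan macrophage-like cells (-0.02, -0.07 to 0.03). State 3 had the highest level, 486 CPM, followed by 274 in state 5, 188 in state 7, 168 in state 6, 126 in state 2, 121 in state 4 and 91.6 in state 1. Neighbours 7 and 6, and 2 and 4, overlapped. State 3 had 499 and 470 CPM in control and telmisartan, and state 7 gave the lowest log2 ratio (-0.44, -0.68 to -0.21). The interval lay below 0 in states 1, 3, 6 and 7 and above 0 in none of the 7.

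The *Fscn1* and *Il12b* state of dendritic-like cells had far more *Fabp5* than any macrophage state. Dendritic state 3 had 2464 CPM in control (900 UMIs in 52 of 60 cells) and 1523 with telmisartan (377 UMIs in 39 of 47 cells), a log2 ratio of -0.69 (-0.87 to -0.52). T cell markers summed to 5 UMIs in this state in control and to 44 (178 CPM, 10 of 11 genes) with telmisartan, and what this did to the ratio was not tested. The other dendritic-like states lay between 60.3 and 102 CPM, with states 2 and 1 overlapping. Dendritic state 1 rose from 69.0 to 120 CPM (0.80, 0.37 to 1.24), and states 2 and 4 fell by 0.73 and 0.96 on the same scale. Dendritic-like cells as a whole went from 386 to 263 CPM (-0.55, -0.70 to -0.40), short of 1.5-fold, and 77.1% of their *Fabp5* UMIs came from state 3. The ratio ran from -1.64 (90% tag share with more doublets removed) to -0.03 (mean over cells of the log of scaled UMIs) and was past 1.5-fold under 4 of 15 alternatives. In cells thinned to 1000 UMIs, *Fabp5* was found in 13.6% of control and 15.7% of telmisartan dendritic-like cells, and in 36 of 59 and 27 of 45 cells of state 3.

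*Plin2* encodes perilipin 2, which coats lipid droplets (chromosome 4, 86648386 to 86670060). Macrophage-like cells had 254 CPM in control (9740 UMIs) and 291 with telmisartan (8272 UMIs), a log2 ratio of 0.20 (0.15 to 0.24). State 5 stood out at 818 CPM, with 398 in state 4, 363 in state 3, 209 in state 1, 180 in state 2, 151.2 in state 7 and 151.0 in state 6. Only states 7 and 6 overlapped. Within states the groups were close, at 823 and 814 CPM in state 5 and 361 and 366 in state 3, and only state 4 (0.24) and state 1 (-0.29) had intervals apart from 0. Weighted by the control shares of the states, the ratio was -0.02. Which states' shares made up the difference was not tested.

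Neutrophil-like cells had the highest *Plin2* level of the 4 classes, 988 CPM in control (90 UMIs) and 1587 with telmisartan (75 UMIs), a log2 ratio of 0.68 (0.22 to 1.14). Dendritic-like cells had 74.6 and 81.0 CPM, highest in dendritic state 2 with 124 and at 64.9, 60.3 and 42.4 in states 1, 4 and 3, which overlapped as neighbours. T-like cells had 109 and 65.1. In cells thinned to 500 UMIs, *Plin2* was found in 12.5% of control and 14.7% of telmisartan macrophage-like cells, against 2.70% and 4.35% of T-like cells and 25.5% and 25.0% of neutrophil-like cells.

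*Lpl* encodes lipoprotein lipase, a secreted enzyme that frees fatty acids from lipoproteins (chromosome 8, 68880491 to 68907448). It fell in macrophage-like cells from 150 CPM in control (5728 UMIs) to 91.2 with telmisartan (2590 UMIs), a log2 ratio of -0.71 (-0.78 to -0.65). The share of cells with a UMI was 30.7% (29.3 to 32.2%) and 20.5% (19.3 to 21.8%), and 8.54% and 5.68% in cells thinned to 1000 UMIs. T-like cells went the same way, with 29 UMIs in 7 of 74 control cells and 6 UMIs in 4 of 115 telmisartan cells (-2.25, -3.81 to -0.95). Macrophage markers summed to 5939 CPM in control and 3560 in telmisartan T-like cells, and what RNA from other cells added to these *Lpl* UMIs was not tested.

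State 7, with its replication genes, had the highest *Lpl* level at 260 CPM, then 151 in state 2, 131 in state 1, 111 in state 6, 84.2 in state 3, 74.3 in state 5 and 51.9 in state 4. States 3 and 5 overlapped. *Lpl* was lower in 6 of the 7 states, from -0.97 in state 6 (141 to 72.1 CPM) through -0.79 in state 1 (171 to 98.7) and -0.60 in state 7 (287 to 189) to -0.34 in state 3, and the interval of state 4 (-0.36) included 0. State 5 was the exception, with 46.6 CPM in control and 97.2 with telmisartan (1.06, 0.71 to 1.42). With states weighted by control shares the log2 ratio of the class was -0.46, under 1.5-fold.

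Dendritic-like cells showed the opposite, from 39.2 CPM in control to 170 with telmisartan (2.12, 1.81 to 2.44), a larger ratio than 99.9% of genes. Dendritic state 2 held 95.4% of these UMIs. It went from 124 CPM (105 UMIs in 20 of 74 cells) to 684 (335 UMIs in 25 of 56 cells), a log2 ratio of 2.47 (2.15 to 2.80), which again cannot be told apart from a shift in the make-up of this state. The other dendritic states had 11.6 CPM (state 4), 4.39 (state 1) and 1.63 (state 3), overlapping as neighbours, and the class without state 2 gave 0.83 from few UMIs. *Lpl* was also the first gene that set state 2 apart from the other dendritic-like cells.

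*Lipa* encodes lysosomal acid lipase, which splits cholesteryl esters and triglycerides taken up from outside (chromosome 19, 34492318 to 34527474). Across macrophage states it varied least of the 10 genes, and the class had 107 CPM in control and 102 in telmisartan macrophage-like cells (-0.08, -0.15 to -0.01). State 5 had 132 CPM, state 3 119, state 7 110.50, state 2 110.11, state 1 94.7, state 6 94.4 and state 4 66.3. Of the neighbours, 5 and 3, 3 and 7, 7 and 2, and 1 and 6 overlapped. State 5 rose from 93.7 to 163 CPM (0.80, 0.55 to 1.06), whereas state 6 was lower (-0.40, -0.60 to -0.20) and the other 5 had intervals that include 0. Dendritic-like cells had 78.3 and 113 CPM (0.53, 0.26 to 0.80), past 1.5-fold under 1 of 15 alternatives (0.62, first clustering at a resolution of 0.3). They had 169 CPM in dendritic state 2, 78.3 in state 4, 72.2 in state 1 and 16.3 in state 3, of which states 4 and 1 overlapped. T-like cells had 81.0 and 84.6 CPM, close to the other classes, and neutrophil-like cells 154 and 148.

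*Abca1* and *Abcg1* encode membrane pumps that pass cholesterol to apolipoprotein A-I and to HDL particles. *Abca1* (chromosome 4, 53030787 to 53159895) had 177 CPM in control macrophage-like cells and 231 with telmisartan (0.39, 0.34 to 0.44), a larger ratio than 90.4% of genes but under 1.5-fold. State 5 had 395 CPM and state 3 384, with overlapping intervals and well above 188 in state 4, 187 in state 1, 110 in state 6, 103 in state 7 and 100.02 in state 2. States 4 and 1, 6 and 7, and 7 and 2 overlapped as well. State 3 was higher with telmisartan, 446 against 328 CPM (0.44, 0.36 to 0.52), and state 7 rose from 86.3 to 148 (0.77, 0.50 to 1.05). States 4 and 6 were also higher (0.45 and 0.27), and state 5 was lower, 345 against 454 CPM (-0.40, -0.53 to -0.26). State 1 was slightly lower (-0.15), and state 2 showed no difference at this depth (0.03, -0.16 to 0.22).

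*Abca1* was higher in macrophage-like cells than in dendritic-like and T-like cells. Neutrophil-like cells had 10 and 2 UMIs, and their interval overlapped that of macrophage-like cells in control. Dendritic-like cells had 19.9 CPM in control and 20.6 with telmisartan, 8.87 and 11.2 times less, with 44.1 CPM in dendritic state 2, 16.3 in state 3, 11.2 in state 1 and 8.47 in state 4. Dendritic state 2 held 59 of the 100 UMIs of this class, and the log2 ratio of 0.05 turned to -1.03 without it. A UMI was found in 54.8% of control and 55.1% of telmisartan macrophage-like cells, against 12.2% and 10.4% of T-like cells. It was found in 38 of 361 and 24 of 292 dendritic-like cells. The dendritic-like share, at a depth close to that of macrophage-like cells, was no higher than the T-like one. Whether these UMIs came from other cells was not tested.

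*Abcg1* (chromosome 17, 31057675 to 31117988) had 42.9 CPM in control and 50.8 in telmisartan macrophage-like cells (0.24, 0.14 to 0.35). State 5 led with 95.9 CPM, ahead of 59.8 in state 4, 53.2 in state 2, 46.4 in state 3, 36.7 in state 1, 31.3 in state 6 and 28.6 in state 7. Of the neighbours, 4 and 2, 2 and 3, 1 and 6, and 6 and 7 overlapped. It rose in state 5 from 71.6 to 116 CPM (0.69, 0.40 to 0.99) and in state 3 from 36.3 to 57.9 (0.67, 0.43 to 0.92), with intervals that include 0 in the other 5. Unlike *Abca1*, *Abcg1* was as high in dendritic-like cells, with 51.5 and 49.1 CPM, and the 4 dendritic states (68.0, 53.9, 47.3 and 30.7 CPM in states 2, 3, 1 and 4) overlapped as neighbours. T-like cells had 17.1 and 21.7 CPM.

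*Apoe* encodes apolipoprotein E, which macrophages secrete and which carries cholesterol out of the cell and into tissue (chromosome 7, 19696109 to 19699188). It showed the largest rise of the 10 genes in macrophage-like cells, from 1157 CPM in control (44321 UMIs) to 2547 with telmisartan (72333 UMIs), a log2 ratio of 1.14 (1.12 to 1.16). The share of cells with a UMI was 77.5% and 78.4%. In cells thinned to 1000 UMIs it went from 39.2% (37.6 to 40.7%) to 52.3% (50.7 to 53.8%).

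*Apoe* was higher with telmisartan in all 7 states compared, with every interval above 0. State 3, the *Folr2* and *Cbr2* state, had by far the most, with 3737 CPM in control and 7414 with telmisartan (0.99, 0.97 to 1.01), and held 54.6% and 58.8% of the class's *Apoe* UMIs. State 1 had the steepest rise, from 307 to 1124 CPM (1.87, 1.81 to 1.94). State 2 rose from 544 to 1067 CPM (0.97), state 6 from 1022 to 1882 (0.88), state 7 from 908 to 1579 (0.80) and state 5 from 483 to 770 (0.67). State 4 had the smallest ratio, with 1312 and 1699 CPM (0.37, 0.29 to 0.46). Both groups together, the order was 5464 CPM in state 3, then 1568, 1400, 1096 and 762 in states 4, 6, 7 and 1, and 640.0 and 639 in states 5 and 2, of which only the last pair overlapped.

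Outside macrophages, *Apoe* was low in dendritic-like cells, with 113 CPM in control and 126 with telmisartan (0.16, -0.08 to 0.40). Dendritic state 1 rose from 92.3 to 183 CPM (0.99, 0.63 to 1.35) and dendritic state 2 fell from 160 to 102 (-0.65, -1.15 to -0.17), while states 3 and 4 gave -0.50 and -0.47 with intervals that include 0. Over both groups states 2, 1, 3 and 4 had 139, 132, 111 and 65.6 CPM, with overlap of 2 and 1 and of 1 and 3. T-like cells had more, 896 CPM in control and 1139 with telmisartan (0.35, 0.16 to 0.54), in 34 of 74 and 48 of 115 cells. Neutrophil-like cells had 33 and 5 UMIs. How much of the T-like level came from macrophage RNA was not tested.

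**Figure D2:**
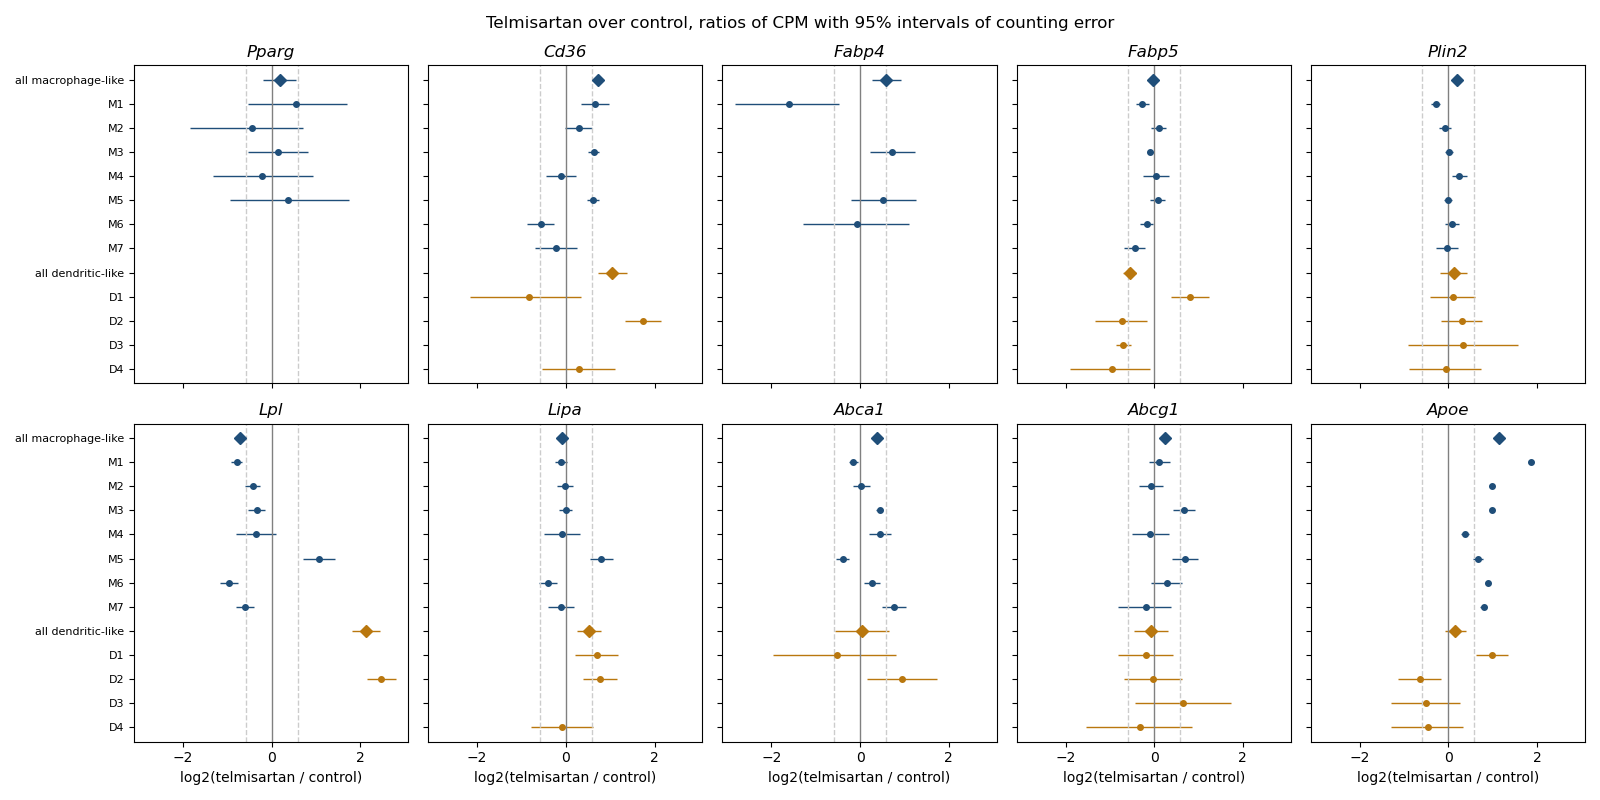
Log2 ratios of CPM, telmisartan over control, for the 10 genes in all macrophage-like cells, macrophage states M1 to M7, all dendritic-like cells and dendritic states D1 to D4. Diamonds are classes, circles are states, bars are 95% intervals of counting error, dashed lines mark 1.5-fold, states with fewer than 20 UMIs or a group at 0 are not drawn, and *Apoe* lies above 0 in all 7 macrophage states.

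The genes whose levels ran most like those of each member were sought over 22 points, the 7 macrophage and 4 dendritic states in each group, among 8371 genes. The points share 2 pools and 1 capture, so the coefficients are a description. *Plin2* ran closest to *Hmox1* (Pearson r = 0.98), the heme oxygenase gene that leads state 5, then to *Abcc5* and *Xdh*. *Abca1* ran with *Slc7a8* (0.97), *Mindy1* and *Ctsl*, and *Apoe* with *Ms4a7* (0.97) and *Siglec1*. *Fabp5* was nearest *Rap2b* (0.94), *Lima1* and *Tpm1*, *Lipa* nearest *Anxa1* (0.93), *Itgb2* and *Pgam1*, and *Cd36* nearest *Slc48a1* (0.92), *Ptger2* and *Rassf8*. *Lpl* went with *Ctsc* (0.86) and *Adam15*, and *Abcg1* with *Rb1cc1* (0.83), *Sertad2* and *H2-D1*. *Pparg* and *Fabp4* had too few UMIs for this.

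Among themselves, over the 14 points of the macrophage states, *Cd36* ran with *Plin2* (r = 0.88), *Abca1* (0.79), *Abcg1* (0.75) and *Fabp5* (0.74), and *Plin2* with *Abca1* (0.84) and *Abcg1* (0.83). *Lpl* ran against *Plin2* (-0.66), *Abca1* (-0.59), *Abcg1* (-0.57) and *Cd36* (-0.52). *Apoe* had 0.56 to *Fabp5*, 0.28 to *Abca1*, 0.27 to *Cd36*, -0.00 to *Plin2* and -0.30 to *Lpl*.

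The wider lipid lists, 183 genes of which 181 were in the table, gave 146 genes at 100 UMIs in macrophage-like cells. Of these, 8 were at least 1.5-fold higher with telmisartan (*Apoe*, *Cd36*, *Dgat1*, *Fabp4*, *Fabp7*, *Gla*, *Gpnmb* and *Klf4*) and 6 at least 1.5-fold lower (*Fdps*, *Hsd17b7*, *Itgax*, *Lpl* and *Spp1* among them). Their median was 0.01, against -0.04 over all 11073 genes. Of all genes at that depth, 4.71% and 2.25% were past the same limits. Without scaling for depth, the medians of all 12 lists lay below 0, as did that of all genes (-0.45).

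The PPAR target list, with 19 genes at that depth, held rises of *Cd36*, *Fabp4* and *Klf4* and the fall of *Lpl*. *Klf4*, a transcription factor gene, went from 604 to 959 CPM (0.67, 0.64 to 0.69). The list's median was 0.01 (-0.40 without scaling for depth and -0.13 for the mean over cells of the log of scaled UMIs), with *Hadha* at -0.28 and *Ucp2* at -0.21 among the lowest. All genes had medians of -0.45 and -0.19 under those settings. The 21 genes of fatty acid oxidation held none past 1.5-fold, from *Echs1* at -0.40 to *Slc25a20* at 0.36, and their median was -0.06, which turned to 0.03 with the control shares of the states.

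The LXR target list had 15 genes and a median of 0.12, with *Apoe* past 1.5-fold upward and *Lpl* downward. Without scaling for depth the median was -0.29, beside -0.45 for all genes. *Pltp*, which moves phospholipids between lipoproteins, had 50.2 and 73.4 CPM (0.55, 0.46 to 0.64), and *Mylip*, which encodes a ubiquitin ligase, 23.3 and 31.8 (0.45). Summed, the list had 2170 CPM in control and 3666 with telmisartan, and *Apoe* alone made up the larger part of both.

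Cholesterol synthesis and lipoprotein uptake was the list with the lowest median, -0.30 over 23 genes, of which 19 were below 0. Beside it, the median of all 11073 genes was -0.04, and 53.5% of them had a smaller ratio than *Fabp5* (-0.02). The median of the list was below 0 under each scaling tried (-0.22 in thinned cells to -0.71 without scaling for depth). All genes had medians of -0.04 and -0.45 under those settings. *Fdps* fell from 83 to 34 UMIs (-0.86, -1.48 to -0.26) and *Hsd17b7*, an enzyme of cholesterol synthesis, from 11.9 to 7.33 CPM (-0.70). *Insig1*, which holds the SREBP pathway in check, went the other way (53.8 and 78.3 CPM, 0.54). In dendritic-like cells the median of 15 genes was 0.02. State 5 had the lowest sum of this list among macrophage states, 333 CPM, and state 7 the highest, 896.

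The lipid droplet list had 12 of 13 genes above 0 and a median of 0.14. All 11073 genes had a median of -0.04, and 53.5% of them had a smaller ratio than *Fabp5* (-0.02). With the control shares of the states, 10 of the 13 were above 0 (median 0.07, beside -0.03 for all genes). For the mean over cells of the log of scaled UMIs, 8 were (0.07, beside -0.19). Without scaling for depth 2 were, and the median turned to -0.27, beside -0.45 for all genes. *Dgat1*, which makes triglycerides, went from 34.9 to 70.6 CPM (1.02, 0.92 to 1.12), and its relative *Dgat2* from 7.26 to 10.3 (0.50). Without *Plin2*, the list summed to 2659 CPM in state 5, against 707 to 1356 in the other states. Of the 18 lysosomal genes, *Gla*, an enzyme that breaks down glycolipids, rose from 77.3 to 137 CPM (0.83, 0.76 to 0.90), and the median was 0.04. The cytosolic carrier gene *Fabp7* rose from 80 to 130 UMIs (1.13, 0.72 to 1.55).

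The list of genes known from lipid-associated macrophages split evenly, with 9 of 18 above 0. *Gpnmb* rose from 21.9 to 37.2 CPM (0.77) beside *Apoe* and *Cd36*, whereas *Spp1* fell from 3537 to 2166 CPM (-0.71) and *Itgax* from 251 to 144 (-0.79) beside *Lpl*. Lipid uptake and scavenger receptors held *Cd36* alone past 1.5-fold among 14 genes, with *Msr1* at 1039 and 845 CPM (-0.30). Fatty acid synthesis had none past 1.5-fold among 9 genes and a median of -0.11, with *Acly* lowest (-0.34). That median turned to 0.06 with the control shares of the states. Apolipoproteins and lipase partners had 5 genes at depth, of which *Apoe* and *Lpl* passed 1.5-fold.

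Markers of other cells that express these lipid genes were sought in the macrophage-like sums. Of 11 adipocyte markers, 10 were detected in control and 9 with telmisartan, at a summed 8.88 and 11.1 CPM. The most abundant was *Lipe* (251 and 204 UMIs), which also belongs to the lipid droplet list. *Retn* came next and went the other way, with 41 UMIs in control and 72 with telmisartan. *Plin1* had 22 and 16 and *Cfd* 10 and 11, while the defining genes *Adipoq* had 2 UMIs in each group and *Lep* 1 and 0. The other adipocyte markers had 6 or fewer in either group. In dendritic-like cells *Adipoq* was at 0 in both groups, with *Pck1*, *Cfd* and *Slc2a4*.

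Endothelial markers, 11 of 11 in control and 10 of 11 with telmisartan, summed to 24.7 and 25.2 CPM. *Pecam1* was the most abundant, with 727 and 513 UMIs, whereas *Cldn5* had 2 and 0 and *Gpihbp1*, the endothelial anchor of lipoprotein lipase, 5 and 3. Fibroblast markers (10 of 10 in both) summed to 12.2 and 18.6 CPM, led by *Col3a1* and *Col1a1*. Of the 8 tumor epithelial markers in the table, 7 and 6 were detected at 61.1 and 44.1 CPM, of which *Cdh1* made up 2294 and 1231 UMIs, and *Krt8* had 2 and 0. B cell markers had 2.01 and 2.61 CPM, most of it *Cd79b*, and NK cell markers 1.07 and 1.16.

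The list of alveolar-type macrophages, in which *Pparg* is known to be high, had 958 and 1314 CPM in macrophage-like cells, most of it *Il1rn* (31091 and 33646 UMIs). Of the other 9 genes, *Chil3* had 4860 and 3037 UMIs, *Atp6v0d2* 425 and 407, *Car4* 193 and 67, *Ear2* 66 and 116, *Siglecf* 30 and 22, and *Ear1*, *Krt79*, *Marco* and *Cidec* 5 or fewer. In dendritic-like cells *Ear2* had 213 and 243 UMIs. What part any of these cells had in the ratios was not tested.

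Promoters of *Cd36* and *Plin2* are shown because both genes peaked in the same macrophage state and both carry a match to the PPAR element. RefSeq promoters on GRCm38.p6 (250 bases before to 50 after a start), 10 in all, were found for 6 of the 10 genes. None was found for *Fabp4*, *Fabp5*, *Lpl* and *Abcg1*. They were searched on both strands for AGGTCANAGGTCA (DR1) and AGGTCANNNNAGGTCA (DR4, the LXR element). With up to 2 mismatches in the 12 fixed letters, DR1 was found in the promoters of *Cd36* and *Plin2*, which have 1 each, as in 3.86% of 32851 promoters. The *Cd36* promoter (chr5:17835847-17836146) belongs to a start inside the span of the gene, 17781690 to 17888801. The 5′ end of that span was not searched. DR4 was found in none of the 10 promoters, beside 3.02% of all promoters. Neither gene had a match with 0 or 1 mismatch, which 0.0396% and 0.554% of promoters hold. The stretches lie at chr5:17835907-17835999 and chr4:86670232-86670309, both on the minus strand and written 5′ to 3′ with the gene, and capitals mark the match, which reads as DR1 on the opposite strand. A match is a description of letters and not a site.
Cd36: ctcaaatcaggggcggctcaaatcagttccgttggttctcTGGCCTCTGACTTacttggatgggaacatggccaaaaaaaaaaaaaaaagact
Plin2: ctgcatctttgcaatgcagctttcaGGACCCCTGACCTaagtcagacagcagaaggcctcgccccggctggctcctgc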

How the data were processed

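The deposited values are UMI counts per gene and putative cell and counts of Sample Tag reads. Per the labels, the authors made both with the BD Rhapsody WTA Analysis Pipeline 1.11 on GRCm38 with GENCODE M19. Positions are from GENCODE M21. A cell took the tag with at least 75% of at least 10 tag reads, and cells with 150 to 5000 genes and at most 20% mitochondrial UMIs were kept. Likely doublets, 942 cells with the highest Scrublet scores in scanpy 1.11.5, were removed. Their number was computed from the 8.67% of cells whose reads were split between tags. Clusters were made with R 4.3.3 and its package Seurat 5.3.0. Settings were 2000 variable genes without the 183 lipid genes, 30 principal components and a resolution of 0.5. The resolution was 0.45 within macrophage-like and 0.3 within dendritic-like cells. A cluster was named after a dendritic, T, neutrophil, B or NK list if at least 3 markers were at least 4-fold above other cells. The clusters left were called macrophage-like, without use of the macrophage markers. UMIs were summed by class, state and group with pandas 2.3.3, numpy 2.4.6 and scipy 1.17.1 on Python 3.11.15, and figures drawn with matplotlib 3.10.9. With 1 pool per group there was no test, and at least 1.5-fold between groups, or 3-fold between states or classes, stands in for a call. The intervals were tried on counts simulated with counting error alone, which is what they assume. That cannot show how they hold under variation between cells or mice. TMM factors were from edgeR 4.0.16.

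The 10 genes are named throughout. From the lipid lists, genes with at least 200 UMIs past 1.5-fold are named, then the 3 highest and 3 lowest ratios of a list, and receptors at any level. For likeness, genes among the 3 with the highest correlation of log2(CPM + 10) over genes with at least 500 UMIs are named. The genes and lists were chosen with earlier results of these data known.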

Additional observations from a re-analysis of the deposited data

Results flagged for a closer look

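Some states moved against their class, where the intervals of state and class lay on opposite sides of 0. Among macrophage states, these were *Cd36* in state 6 (-0.57), *Fabp4* in state 1 (-1.60), *Plin2* in state 1 (-0.29), *Abca1* in state 1 (-0.15) and state 5 (-0.40), *Lpl* in state 5 (1.06) and *Lipa* in state 5 (0.80). Among dendritic states, it was *Fabp5* in state 1 (0.80). Between the classes, *Lpl* (2.12) and *Lipa* (0.53) were higher with telmisartan in dendritic-like cells and lower in macrophage-like cells, where *Lipa* (-0.08) turned to 0.02 with the control shares of the states. In cells thinned to 1000 UMIs, the share of state 6 cells with *Cd36* was not lower with telmisartan (11 of 367 and 13 of 332 cells). The values above are log2 ratios of telmisartan over control, and whether they differ beyond the variation between mice was not tested.

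Cells over 20% mitochondrial UMIs, 3586 control and 5373 telmisartan cells, were left out of the comparisons. In them the interval lay apart from 0 for *Apoe*, which passed 1.5-fold, and for *Abcg1*, and included 0 for the rest of the 10 genes. *Apoe* had 1130 and 2049 CPM (log2 ratio 0.86) and *Abcg1* 15.8 and 21.5 CPM (0.44, 0.03 to 0.87). How many of all genes differ so in these cells was not tested. For *Lpl* (36.9 and 35.3 CPM) and *Cd36* (46.5 and 51.9 CPM) the intervals included 0, as for *Fabp4*, which was at -0.17 (-0.85 to 0.52), and what these cells are was not tested.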

How the results depend on the processing

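Of 21 alternatives for the 4 genes past 1.5-fold in macrophage-like cells, 15 gave 3 or 4 genes. The mean over cells of the natural log of scaled UMIs plus 1 gave 2, no scaling for depth 2, control shares of the states 1, leaving out the cluster of the lowest UMI counts 2 and a 2-fold limit 1. Leaving out state 5, chosen after seeing the data, gave 2. In dendritic-like cells (2 genes, 17 alternatives) that mean of logs gave 1. Thinning to 1000 UMIs gave 0, as fewer genes reached 100 UMIs, and *Cd36* was then also under 1.5-fold. Leaving out dendritic state 2, also chosen after seeing the data, gave 1, *Fabp5*. *Cd36*, *Lpl* and *Abca1* then had under 100 UMIs, and *Cd36* (-0.088) was also no longer past 1.5-fold. For the lipid lists (14 genes) no scaling for depth gave 46. On that scale the median of all genes in macrophage-like cells was -0.45, and with the mean of logs -0.19, beside -0.04. *Cd36* in dendritic-like cells turned to -0.18 with a tag share of at least 90%, which also removed 3168 and not 942 doublets, and to -0.088 without dendritic state 2. The cause was not tested.

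The 9 genes that varied over 3-fold among states became 7 to 10 under 11 alternatives, and the 3 genes apart between the classes 2 to 4 under 9. In macrophage-like cells *Apoe* (0.73 to 1.24), *Cd36* (0.31 to 0.92), *Fabp4* (0.03 to 0.74) and *Lpl* (-1.12 to -0.46) kept their sign under 19 alternatives. *Apoe* passed 1.5-fold under all 19, *Lpl* under 18, *Cd36* under 13 and *Fabp4* under 7. *Plin2*, *Abca1* and *Abcg1* fell below 0 without scaling for depth (-0.21, -0.02 and -0.17).

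The depth limits *Pparg* and *Fabp4* most, at 245 and 319 UMIs in 8056 macrophage-like cells. Cell classes, states and tag calls were rebuilt here, and each group is 1 pool.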

Other observations

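Without any limit on cell quality and without classes, 8738 control and 10222 telmisartan cells gave 1089 and 2249 CPM for *Apoe* (log2 ratio 1.05), 63.3 and 97.4 for *Cd36* (0.62) and 133 and 85.0 for *Lpl* (-0.65). *Fabp4* had 4.19 and 5.42 CPM (0.37, 0.10 to 0.64). This set was chosen after seeing the data.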
